A study of Mus musculus with 17 samples.

Results

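The stem-loop RNAs SLR10 and SLR14 were compared with each other in mouse spleen after intravenous injection, to describe how near the transcript levels they left behind were and how large a difference could still be present. The comparison used 6 of the 17 spleen RNA-seq libraries of the study, 3 from mice given SLR10 and 3 from mice given SLR14. Of the 38340 named genes, 12913 were tested, those with at least 1 CPM in at least 2 of the 6 libraries. CPM are read counts as scaled by the authors with edgeR, which was not by library size alone. All mice were of the strain given as CB57BL/6NCrl, untreated by any other agent named in the labels. Each stem-loop RNA was given as 25 µg in 200 µl, complexed with in vivo-jetPEI, a cationic polymer that carries nucleic acid into cells, at an N/P ratio of 8. The dose was matched by mass, and the time between injection and collection is not stated, nor the age and sex of the mice. Vehicle-injected mice (2 libraries) served to size the response, and naive mice (3 libraries) as a separate control. The remaining libraries, from mice given poly(I:C) or pppNS RNA (3 each), entered the model of the response for its estimate of spread, and poly(I:C) also a comparison of library pairs; what the vehicle held is not stated in the labels. Nor do they say that the 3 libraries of a group came from separate mice, so the tests measure the spread between these libraries.

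SLR10 and SLR14 are short synthetic RNAs that fold back on themselves into a hairpin, and SLR14 has the longer base-paired stem. RIG-I, the cytosolic sensor encoded by Ddx58, recognises blunt duplex RNA ends that carry a 5′ triphosphate or diphosphate. It signals through MAVS on mitochondria to the transcription factors IRF3, IRF7 and NF-kB. Type I and type III interferons are then secreted, and through their receptors they switch on the interferon-stimulated genes, whose products block viral replication. In the spleen, a blood filter, macrophages, dendritic cells, lymphocytes and stromal cells all take part in such a response.

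The 6 libraries held 26.5 to 38.6 M reads each (median 29.9 M), with 15.8 to 23.6 M of them assigned to a named gene, and a single read was worth 0.0291 to 0.0431 CPM. Cells that populate the spleen were represented, which does not by itself identify the organ: all 16 B cell markers in the table passed the filter on low values, and Cd79a, the signalling chain of the B cell receptor, stood at 297 to 475 CPM in the 6 libraries. Spic, a transcription factor of red pulp macrophages, stood at 89.6 to 101 CPM. The library of SLR14 replicate 2 stood apart from the other 5, with high erythroid and cell-cycle transcripts that are described at the end, so results that rest on it are given with and without it. Between replicates the median standard deviation of a gene was 0.204 on the log2 scale with SLR14 and 0.0856 with SLR10, and it was 0.104 over SLR14 replicates 1 and 3 alone. Spleen RNA is a mixture, so fewer cells of a type and less RNA per cell cannot be told apart in any of the values below.

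No gene passed the test of a difference between SLR14 and SLR10. Of 12913 genes, 0 (0%) passed an adjusted p of 0.05 with limma, and the smallest adjusted p was 0.892. At an unadjusted p under 0.05 there were 215 genes (1.66%), 61 higher (0.472%) and 154 lower (1.19%) with SLR14. On counts recovered from the table, edgeR called 0 genes (269 at an unadjusted p under 0.05) and DESeq2 called 1, Zfp36l2 (373 at an unadjusted p under 0.05). The 3 SLR14 values lay wholly above the 3 SLR10 values for 588 genes (4.55%) and wholly below for 579 (4.48%), together 9.04%.

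A missed threshold does not show that levels were alike, so the size of difference that the data leave room for was tested directly, with a pair of one-sided limma tests for each gene against bounds of 2-fold in either direction. Of the 12913 genes, 11904 (92.2%) were within 2-fold at an adjusted p of 0.05, and 9527 (73.8%) were within 1.5-fold. Over genes, the median absolute difference was 0.11 on the log2 scale. The median reach of the 95% interval, at its end farther from equality, was 0.46, a 1.38-fold difference. For 1009 genes the 2-fold bound was not met. Of these, 985 could be tested without SLR14 replicate 2, and 823 of them were then within 2-fold. Without that library, 12635 of 12819 genes (98.6%) met the 2-fold bound and 0 genes were called with limma (smallest adjusted p 0.640, 648 at an unadjusted p under 0.05). The median reach of the interval fell to a 1.25-fold difference. SLR14 replicate 2 was singled out by its values, so intervals and bounds without it, here and below, may be too narrow.

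**Figure D1:**
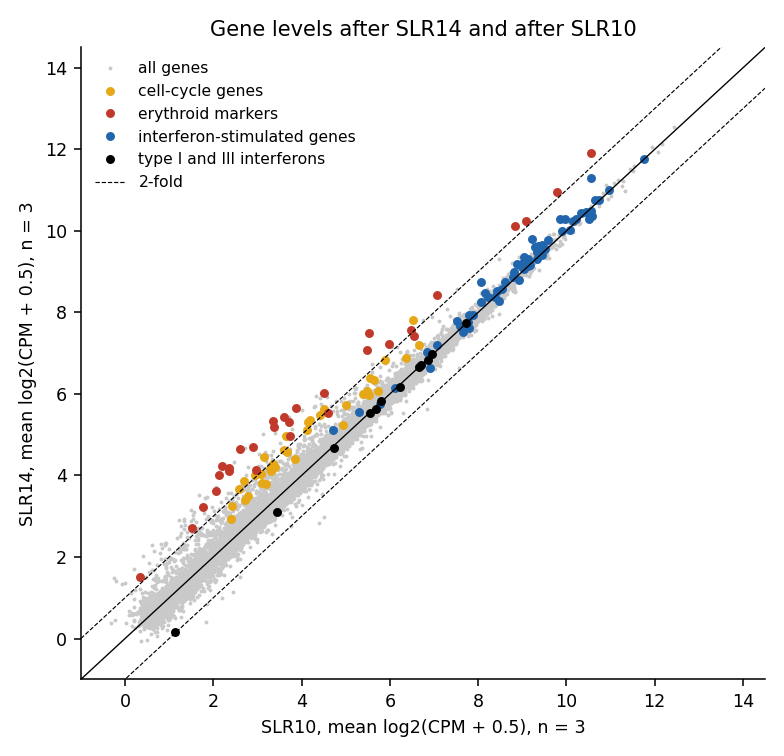
Mean log2(CPM + 0.5) with SLR10 (x axis) against SLR14 (y axis) over all 6 libraries, each point a gene, with 4 gene lists in colour, the line of equality and dashed lines at 2-fold. Interferon and interferon-stimulated genes lie along the line, while most erythroid markers lie above the upper dashed line.

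Single libraries were also compared in pairs. Within SLR10 the median gene differed by 0.0937 to 0.104 on the log2 scale (3 pairs), and between SLR10 and SLR14 libraries other than SLR14 replicate 2 it differed by 0.0921 to 0.151 (6 pairs). SLR14 replicates 1 and 3 differed from each other by 0.147. Pairs of different RNAs thus overlapped the range of pairs of the same RNA, whereas any pair of stem-loop libraries with SLR14 replicate 2 stood at 0.267 to 0.290. Against vehicle libraries the stem-loop libraries differed by 0.492 to 0.556 (12 pairs), and against the libraries of poly(I:C), a long synthetic duplex RNA, by 0.207 to 0.385 (18 pairs). The lowest of these was a pair with SLR14 replicate 2. That library stood at 0.207 from poly(I:C) replicate 3 and 0.255 from replicate 2, nearer than to any stem-loop library. From poly(I:C) replicate 1 it stood at 0.344.

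**Figure D2:**
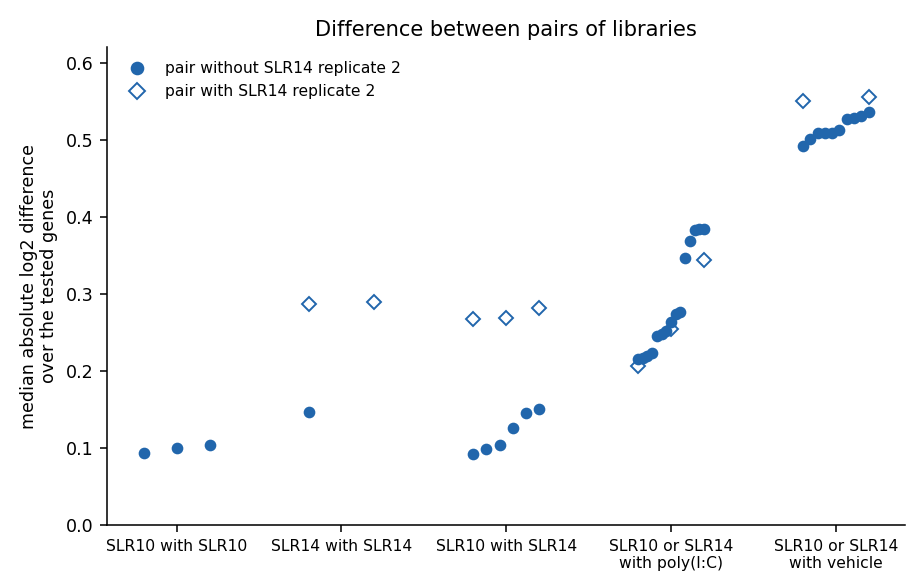
Median absolute difference in log2(CPM + 0.5) over the tested genes for each pair of libraries (y axis), grouped by kind of pair, 1 point a pair, with pairs that hold SLR14 replicate 2 as open diamonds. Pairs of an SLR10 and an SLR14 library without it sit at 0.0921 to 0.151, beside pairs within SLR10, and pairs with vehicle sit highest.

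The response that the stem-loop RNAs shared was large. Averaged over SLR10 and SLR14 and set against vehicle, 6068 of 14012 genes passed (43.3%; limma on all 17 libraries), 3039 higher (21.7%) and 3029 lower (21.6%). Of 1600 genes that rose at least 2-fold and were also tested between the RNAs, 1537 (96.1%) were within 2-fold of each other, with a median difference of -0.04 on the log2 scale. Among the 113 that rose at least 16-fold, 110 (97.3%) were within 2-fold, with a median of 0.02. Of 1132 genes that fell at least 2-fold, 1101 (97.3%) were within 2-fold, with a median of -0.03. Among the other 10181 genes, 9266 (91.0%) met the bound. Without SLR14 replicate 2 the shares were 98% (rose at least 2-fold), 99.1% (rose at least 16-fold), 99.7% (fell at least 2-fold) and 98.5% (the others). The lower share of the others with all libraries thus rested on that library. Genes counted as risen or fallen had also passed against vehicle, which genes of wide spread do less readily. Fold changes against the same vehicle libraries share those libraries, so the RNAs were also set against separate controls: SLR14 against vehicle and SLR10 against naive mice changed 2665 genes by more than 2-fold in both, 2622 of them in the same direction (98.4%), and with the controls exchanged 2743 of 2743 had the same direction.

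The RNA sensors and their signalling partners stood at like levels after either RNA. All 32 genes of this list were within 2-fold, with a median difference of -0.02 against -0.01 over all genes tested, and 24 of them had risen over vehicle. Over all genes, 92.2% were within 2-fold and 21.7% had risen. Counts near those shares, here and for the lists below, do not set a list apart. Ddx58, which encodes RIG-I itself, was at 696, 725 and 693 CPM with SLR10 and at 700, 832 and 752 CPM with SLR14, against 87.2 and 93.7 CPM with vehicle. The groups of stem-loop RNA overlapped, and the difference was 0.11 on the log2 scale (95% interval -0.11 to 0.32). Ifih1, the gene of the long-duplex sensor MDA5, stood at 684, 671 and 632 CPM with SLR10 and 682, 998 and 665 CPM with SLR14. Its highest value was that of SLR14 replicate 2, and the difference was 0.21 (-0.19 to 0.61), or 0.02 (-0.12 to 0.17) without that library. Dhx58, the gene of the regulatory sensor LGP2, differed by 0.07 (-0.14 to 0.29). Mavs, the adaptor downstream of RIG-I and MDA5, was at 15.7, 15.6 and 16.8 CPM with SLR10 and 19.1, 29.9 and 14.7 CPM with SLR14, a difference of 0.34 (-0.25 to 0.92). Irf3, the factor that starts interferon transcription, differed by -0.13 (-0.42 to 0.17) and Irf7, which amplifies it, by 0.11 (-0.16 to 0.39).

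Interferon beta and the interferon alpha genes reached like levels after SLR10 and SLR14. The interferon list has 20 genes: 4 were not analysed here (Ifna6, Ifna7, Ifna11 and Ifnab), 4 were below the filter (Ifne, Ifnk, Ifnz and Ifnl3), and 11 of the 12 tested were within 2-fold, with a median difference of -0.03. Ifnb1, on chromosome 4 at 88522025-88522774 of GRCm38, was at 250, 158 and 243 CPM with SLR10 and at 235, 170 and 241 CPM with SLR14, against 0 and 0.0596 CPM with vehicle. The ranges overlapped almost entirely and replicate 2 was lowest in each group. The difference was 0.00 with a 95% interval of -0.52 to 0.53, so a 1.5-fold change in either direction lay outside it. Ifna4, an interferon alpha made early in infection, stood at 115, 78.4 and 112 CPM with SLR10 and 118, 81.4 and 104 CPM with SLR14, with 0 reads in either vehicle library. Here too the groups overlapped, with a difference of -0.01 (-0.48 to 0.46). Reads of near-identical interferon alpha genes may be shared between them, so single members are uncertain.

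Interferon lambda was the member of this list outside the bound. Ifnl2, on chromosome 7 at 28508836-28510455, was at 1.54, 1.4 and 2.23 CPM with SLR10 and at 0.957, 0.476 and 0.474 CPM with SLR14, and had 0 reads in both vehicle libraries. Every SLR14 value was below every SLR10 value. The difference was -0.98 (-1.53 to -0.42), and -0.88 (-1.45 to -0.32) without SLR14 replicate 2. It did not pass (adjusted p = 0.892, limma), and at levels this low the pseudocount of 0.5 CPM draws a difference towards 0. Ifnl2 and Ifnl3 are near-identical copies, so which of them the reads came from is uncertain.

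Of the interferon receptors, JAK kinases and STAT factors, 18 of 18 were within 2-fold (92.2% over all genes), with a median difference of 0.00. Usp18, which shuts off signalling at the type I receptor, differed by 0.26 (-0.11 to 0.63), and Socs1, an inhibitor of JAK kinases, by -0.03 (-0.33 to 0.26).

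**Figure D3:**
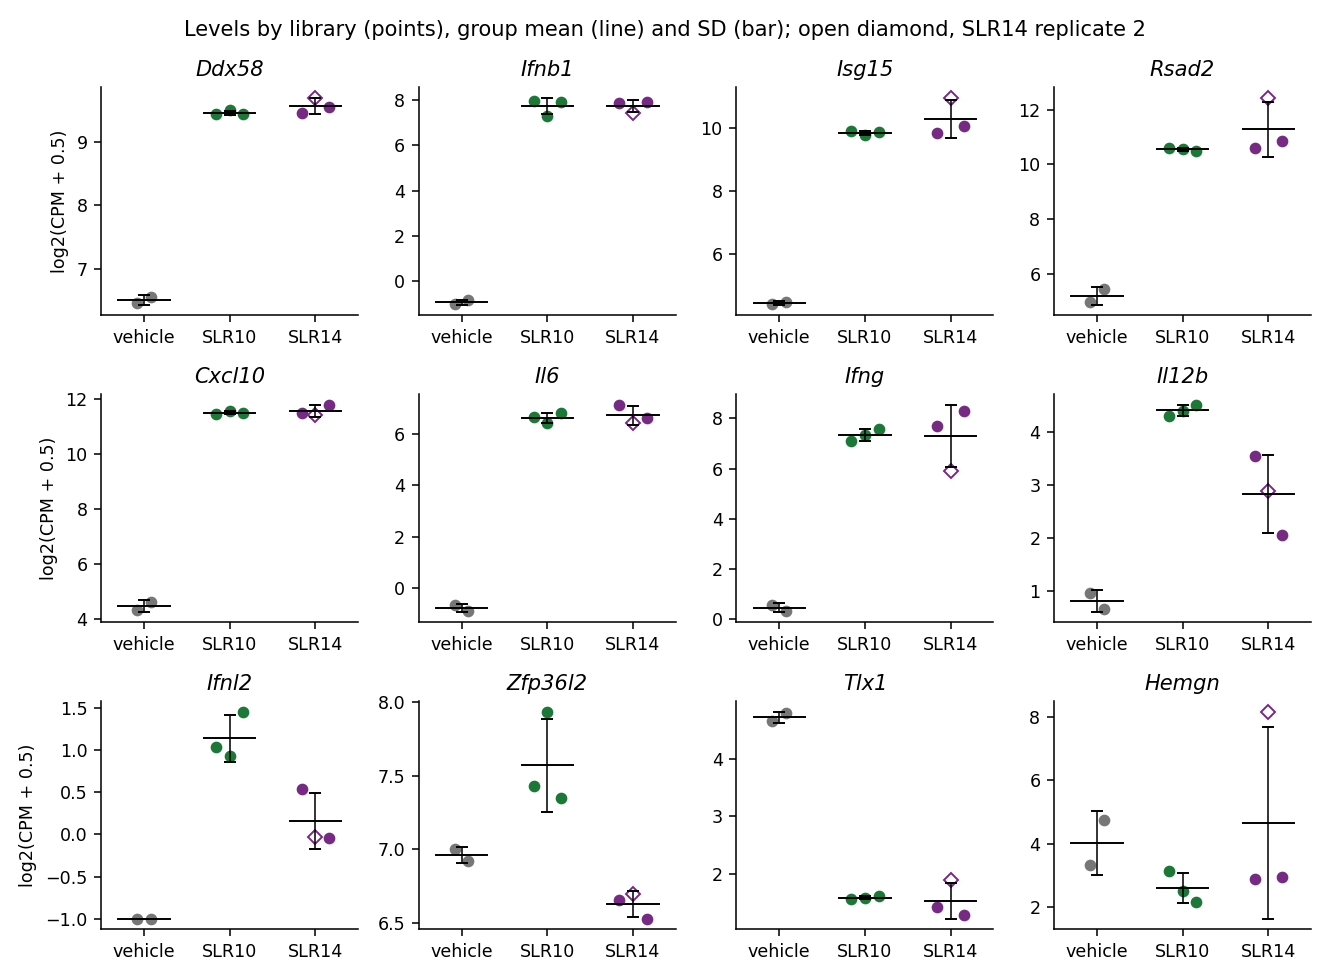
Level as log2(CPM + 0.5) of 12 named genes in each vehicle, SLR10 and SLR14 library, with group means (lines) and SDs (bars), and SLR14 replicate 2 as an open diamond; the y axes differ between panels and do not start at 0. SLR10 and SLR14 points overlap for Ifnb1, Cxcl10 and Il6, are apart for Il12b, Ifnl2 and Zfp36l2, and for Hemgn 1 SLR14 library is far above the rest.

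Interferon-stimulated genes rose together with either RNA. Of 64 tested, 62 were higher than with vehicle, and 61 were within 2-fold between the RNAs, with a median difference of 0.10, or 0.04 without SLR14 replicate 2. The factors that switch these genes on bind a repeated GAAA element, and its letters can be read in the promoters of several members. Shown are 100-base stretches for Isg15, Ifit1 and Rsad2 of this list and for Ifna4 of the interferon list, all raised over vehicle. Only windows with a match were taken, so a match in them is not a result. They come from RefSeq on GRCm38.p6 and run 5′ to 3′ on the strand of the gene, with capitals marking GAAA, any 2 bases and GAAA again, or the reverse complement of that pattern, where matches may overlap. Isg15 is on the minus strand at chr4:156200836-156200935, Ifit1 on the plus strand at chr19:34640749-34640848, Rsad2 on the minus strand at chr12:26456518-26456617 and Ifna4 on the plus strand at chr4:88841608-88841707.
Isg15: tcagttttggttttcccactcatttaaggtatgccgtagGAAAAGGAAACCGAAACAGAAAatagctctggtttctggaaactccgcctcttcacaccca
Ifit1: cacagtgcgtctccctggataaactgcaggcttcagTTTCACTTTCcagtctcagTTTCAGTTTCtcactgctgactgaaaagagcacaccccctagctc
Rsad2: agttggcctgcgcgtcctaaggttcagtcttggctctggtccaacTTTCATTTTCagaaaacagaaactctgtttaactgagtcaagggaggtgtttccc
Ifna4: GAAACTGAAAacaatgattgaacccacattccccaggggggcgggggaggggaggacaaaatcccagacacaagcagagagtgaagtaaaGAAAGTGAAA

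Over windows of 300 bases, from 250 before to 50 after the start, the motif on either strand was found for 23 of the 49 interferon-stimulated genes with a window (46.9%) and 8 of 12 interferon genes (66.7%), against 1079 of all 27025 genes with a window (3.99%; 1131 of 32851 windows, 3.44%). It was found for 4 of 23 ribosomal protein genes (17.4%), 1 of 31 cell-cycle genes (3.23%) and 0 of 19 erythroid markers. A match describes these letters and is not a measured binding site.

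Isg15, which encodes a ubiquitin-like protein secreted and attached to other proteins, was at 957, 876 and 948 CPM with SLR10 and at 916, 2010 and 1068 CPM with SLR14, against 20.9 and 22 CPM with vehicle. SLR14 replicate 2 was the high value, replicate 1 lay within the SLR10 range and replicate 3 lay above it by less. The difference was 0.44 (-0.25 to 1.12), and 0.09 (-0.10 to 0.29) without that library. Rsad2, the gene of the antiviral radical enzyme viperin, went the same way, at 1567, 1520 and 1445 CPM with SLR10 and 1537, 5589 and 1840 CPM with SLR14. It was among the 3 members that missed the 2-fold bound, with Cmpk2, its neighbour on the chromosome, and Ube2l6, which carries ISG15 to its targets. All 64 met it without SLR14 replicate 2, where Rsad2 differed by 0.16 (-0.05 to 0.36).

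Not every member was high in that library. Ifit2, a translation inhibitor that binds foreign RNA, was at 1745, 1707 and 1648 CPM with SLR10 and 1771, 1569 and 1904 CPM with SLR14, a difference of 0.04 (-0.21 to 0.28). Ifit1 differed by 0.32 (-0.06 to 0.70) and Ifit3 by -0.14 (-0.45 to 0.17). Mx1, a GTPase that traps viral nucleoprotein, stood at 1488, 1502 and 1531 CPM with SLR10 and 1520, 1229 and 1603 CPM with SLR14, a difference of -0.06 (-0.35 to 0.22). In Mx1 and Ifit2, SLR14 replicate 2 was the lowest of all 6 libraries.

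In the arm that degrades RNA and halts translation, 17 of 17 genes were within 2-fold (92.2% over all genes). Of these, 15 were above vehicle (21.7% over all genes). Eif2ak2, the gene of the kinase PKR, was at 511, 517 and 504 CPM with SLR10 and at 521, 592 and 548 CPM with SLR14, a difference of 0.11 (-0.07 to 0.30) with no overlap between groups. Oasl1, which restrains translation of Irf7, differed by 0.16 (-0.14 to 0.45). Oas1a, a synthetase of the messenger that activates RNase L, differed by 0.05 (-0.37 to 0.48), and its reads may be shared with other Oas1 copies. All 16 interferon gamma-linked GTPases were within 2-fold, and all 16 were above vehicle. Gbp2, which attacks vacuoles around pathogens, differed by 0.22 (-0.06 to 0.51).

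Interferon gamma varied widely among the SLR14 libraries. Ifng, made by NK and T cells, was at 137, 162 and 189 CPM with SLR10 and at 207, 59.7 and 313 CPM with SLR14, against 1.00 and 0.775 CPM with vehicle. SLR14 replicates 1 and 3 were above every SLR10 library and replicate 2 was below every one. The difference was -0.04 with a wide interval, -1.42 to 1.35, and 0.66 (0.23 to 1.09) without replicate 2, so a 2-fold difference in either direction lay within the interval of all 6 libraries. Gzmb, a granzyme of cytotoxic cells, had the same order, at 97.3, 110 and 113 CPM with SLR10 and 123, 73.6 and 131 CPM with SLR14, and differed by -0.01 (-0.54 to 0.52). Prf1, the pore-forming partner of granzymes, differed by -0.36 (-0.69 to -0.03). Of the 24 genes tested on the list of interferon gamma, its inducing cytokines and cytotoxic effectors, 22 were within 2-fold, with a median difference of -0.12. Without SLR14 replicate 2, 21 were within 2-fold, with a median of 0.01.

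With all 6 libraries, Il12b was the other gene of that list outside the bound, beside Ifng. It encodes the p40 chain of interleukin 12 and interleukin 23, through which dendritic cells and macrophages call on NK and T cells for interferon gamma. Il12b, on chromosome 11 at 44400063-44414033, was at 19.2, 20.4 and 22.2 CPM with SLR10 and at 11.1, 6.88 and 3.66 CPM with SLR14, against 1.45 and 1.09 CPM with vehicle. Every SLR14 library was below every SLR10 library and above both vehicle libraries. The difference was -1.57 (-2.41 to -0.73), and -1.60 (-2.43 to -0.77) without SLR14 replicate 2. It did not pass (adjusted p = 0.892, limma; 579 genes, 4.48%, were separated this way), and neither edgeR nor DESeq2 called it. Of all list members tested it had the lowest difference, and the fitted SLR14 level was 33.6% of that with SLR10 (95% interval 18.8% to 60.3%).

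Chemokines showed no such spread. All 24 tested were within 2-fold with a median difference of 0.03, and 17 were above vehicle. Cxcl10, which draws activated T cells and NK cells through CXCR3, was at 2866, 3060 and 2915 CPM with SLR10 and at 2930, 2736 and 3589 CPM with SLR14, against 19.6 and 24.3 CPM with vehicle. SLR14 held both the lowest and the highest library, and the difference was 0.06 (-0.25 to 0.36). Cxcl9, another CXCR3 ligand, differed by -0.10 (-0.37 to 0.18) and Cxcl11, the remaining one, by 0.07 (-0.31 to 0.44). Ccl2, which recruits monocytes, was at 211, 204 and 226 CPM with SLR10 and 250, 255 and 231 CPM with SLR14. The groups did not overlap, and the difference of 0.20 (0.01 to 0.38) was small. Ccl19 and Ccl21a, the CCR7 ligands made by T-zone stroma, differed by -0.52 (-0.89 to -0.14) and -0.55 (-1.0 to -0.09), with SLR14 below every SLR10 library in both.

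Of 34 inflammatory cytokines and NF-kB feedback genes, 32 were within 2-fold and 32 were above vehicle. Selp, the platelet and endothelial P-selectin, and Saa3, an acute-phase protein, missed the bound with all 6 libraries, and all 34 met it without SLR14 replicate 2. Il6, a driver of the acute-phase response, was at 102, 85.4 and 112 CPM with SLR10 and at 142, 85.4 and 99.9 CPM with SLR14, a difference of 0.11 (-0.37 to 0.59). Tnf, an early macrophage cytokine, was at 149, 154 and 165 CPM with SLR10 and 158, 121 and 153 CPM with SLR14, a difference of -0.12 (-0.40 to 0.16). The groups overlapped for both.

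Il1b and Irg1 varied more. Il1b, which encodes interleukin 1 beta, was at 116, 111 and 133 CPM with SLR10 and at 155, 70.8 and 215 CPM with SLR14. As with Ifng, SLR14 replicate 2 was below and replicates 1 and 3 above all SLR10 libraries, and the difference moved from 0.16 (-0.76 to 1.08) to 0.61 (0.30 to 0.93) without it. Irg1, whose product turns cis-aconitate into itaconate in activated macrophages, was at 161, 177 and 167 CPM with SLR10 and 189, 135 and 317 CPM with SLR14, a difference of 0.25 (-0.44 to 0.95), or 0.54 (0.11 to 0.97) without replicate 2. SLR14 replicate 3 was the highest library for Ifng, Il1b and Irg1, and it was also the highest for the neutrophil genes Csf3r (73.3 CPM against 35.0 to 41.1 in the other 5), Cxcr2 (36.1 against 10.6 to 20.6) and Retnlg (97.5 against 28.7 to 42.4). Of the 19 neutrophil markers tested, 11 were highest and 6 lowest in that library, and none was at 0 in any library; their summed level was 592 to 751 CPM with SLR10 and 611, 662 and 1089 CPM with SLR14. Their part in those cytokine values was not tested.

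**Figure D4:**
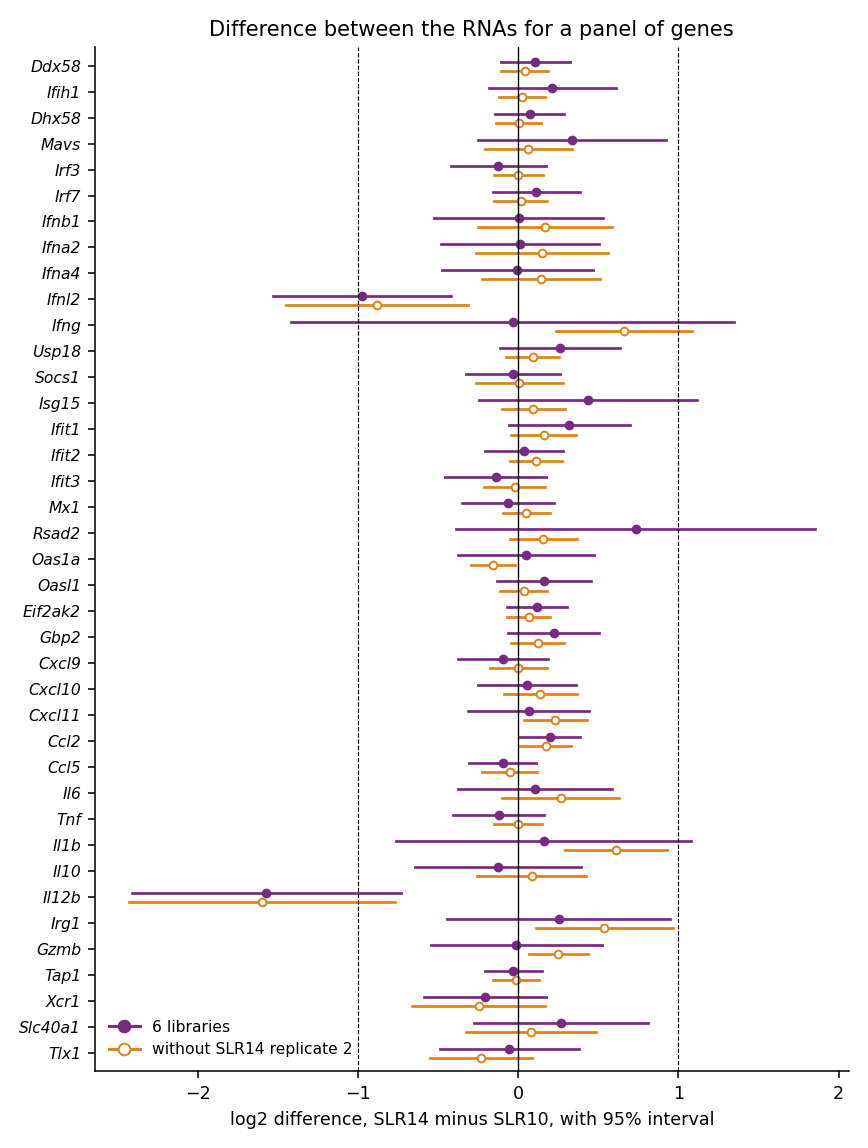
Difference between SLR14 and SLR10 in log2(CPM + 0.5) with its 95% interval for named genes, with all 6 libraries and without SLR14 replicate 2, and lines at 2-fold in either direction. Most intervals lie inside the lines, and those of Rsad2, Ifng and Isg15 narrow without that library, whereas Il12b and Ifnl2 stay low.

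For antigen presentation, 23 of 23 MHC class I genes were within 2-fold (92.2% over all genes). Of these, 22 were above vehicle (21.7% over all genes). Tap1, the peptide transporter into the endoplasmic reticulum, was at 807, 858 and 864 CPM with SLR10 and at 832, 808 and 836 CPM with SLR14, a difference of -0.03 (-0.21 to 0.15).

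Markers of resident cells, many of which fell against vehicle, also stood at like levels. All of the B cell (16), T cell (20), NK cell (11), conventional dendritic cell (17), plasmacytoid dendritic cell (11), marginal zone macrophage (7) and stromal (20) markers tested were within 2-fold. Median differences for the lymphoid lists were slightly negative with all libraries, at -0.23 for B cells, -0.20 for T cells and -0.16 for NK cells, and were -0.06, 0.03 and 0.00 without SLR14 replicate 2. In that library 15 of 16 B cell, 20 of 20 T cell and 7 of 11 NK cell markers were at their lowest of the 6 libraries. So were 13 of 23 MHC class I and 21 of 32 ribosomal protein genes, and counts like that of the NK cell markers are not particular to lymphoid lists. Without SLR14 replicate 2, 10 of 11 NK cell markers met the bound, all but Klrb1c, the receptor NK1.1. Xcr1, the receptor of cross-presenting dendritic cells, was at 2.31, 2.16 and 1.58 CPM with SLR10 and 1.53, 1.78 and 1.68 CPM with SLR14, against 14.9 and 15.7 CPM with vehicle. Slc40a1, the iron exporter ferroportin of red pulp macrophages, was at 19.6, 19.0 and 15.5 CPM with SLR10 and 15.5, 28.1 and 23.4 CPM with SLR14, against 213 and 290 CPM with vehicle. Tlx1, a transcription factor of spleen stroma, differed by -0.06 (-0.49 to 0.38). For these 3 genes that fell deeply, the stem-loop groups overlapped.

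Neutrophil markers met the bound in fewer cases than the other myeloid lists. Of 19 tested, 10 were within 2-fold, and 11 without SLR14 replicate 2, with medians of 0.16 and 0.26. The granule genes among them varied within both groups: Ngp, a secondary granule protein, was at 63.7, 27.5 and 33.4 CPM with SLR10 and at 37.2, 82.9 and 23.3 CPM with SLR14. Monocyte markers (14 of 15) and red pulp macrophage markers (15 of 16) met the bound but for Chil3, a chitinase-like lectin, and Cd163, the haemoglobin scavenger receptor.

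The erythroid and cell-cycle lists were the exceptions, through SLR14 replicate 2. Of 29 erythroid markers, 0 were within 2-fold, and the median difference was 1.5, against 0.17 without that library, when 28 of 28 tested met the bound. The mean of the list, as log2(CPM + 0.5), was 4.66, 4.43 and 4.28 in the SLR10 libraries and 4.57, 8.63 and 4.69 in the SLR14 libraries, and all 29 were highest in SLR14 replicate 2. Their summed level was 3368 to 4840 CPM with SLR10 and 4716, 37634 and 5879 CPM with SLR14. Slc4a1, the anion exchanger of red cells, was at 58.9, 42.8 and 38.4 CPM with SLR10 and at 49.1, 2132 and 56.4 CPM with SLR14. Alas2, the enzyme that commits erythroid cells to haem, was at 143, 116 and 142 CPM with SLR10 and 168, 1196 and 207 CPM with SLR14. For Slc4a1 a single library was high and the other 5 overlapped. For Alas2 all 3 SLR14 values were above every SLR10 value, SLR14 replicate 2 by far the most. The Alas2 difference was 1.37 (-0.34 to 3.09), and 0.48 (0.20 to 0.76) without that library, where it did not pass either (adjusted p = 0.861, limma).

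Cell-cycle genes stood the same way: 1 of 36 was within 2-fold with all libraries and 36 of 36 without SLR14 replicate 2, with medians of 0.83 and -0.02. Mki67, the proliferation antigen, was at 103, 88.1 and 84.0 CPM with SLR10 and at 96.2, 1228 and 93.6 CPM with SLR14. Across all genes, that library was more than 2-fold above the mean of its group mates for 996 genes and below it for 77, together 8.31%. The genes furthest above by the fixed rule were Cfd, Btnl10, Slc4a1, Ank1, Apol11b, Hemgn, Epb4.2 and Sptb, among which Slc4a1, Ank1, Epb4.2 and Sptb build the red cell membrane skeleton. Those furthest below were Eps8l1, Ifng, Il1b, Tarm1, Cxcr6, Gpr171, Cd3d and Cxcr2, mostly of leukocytes. In the same library 39 of 64 interferon-stimulated genes, Isg15, Rsad2, Cmpk2 and Ube2l6 among them, were at their highest of the 6 libraries and 18 at their lowest. Red pulp macrophage markers were at their highest there in 15 of 16 cases and megakaryocyte markers in 13 of 15. Conventional dendritic cell markers were at their lowest there in 13 of 17. That library was an extreme in many lists, and the share over all genes is not given. These counts alone thus do not set a list apart. The part of the erythroid and cell-cycle transcripts in those values was not tested.

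**Figure D5:**
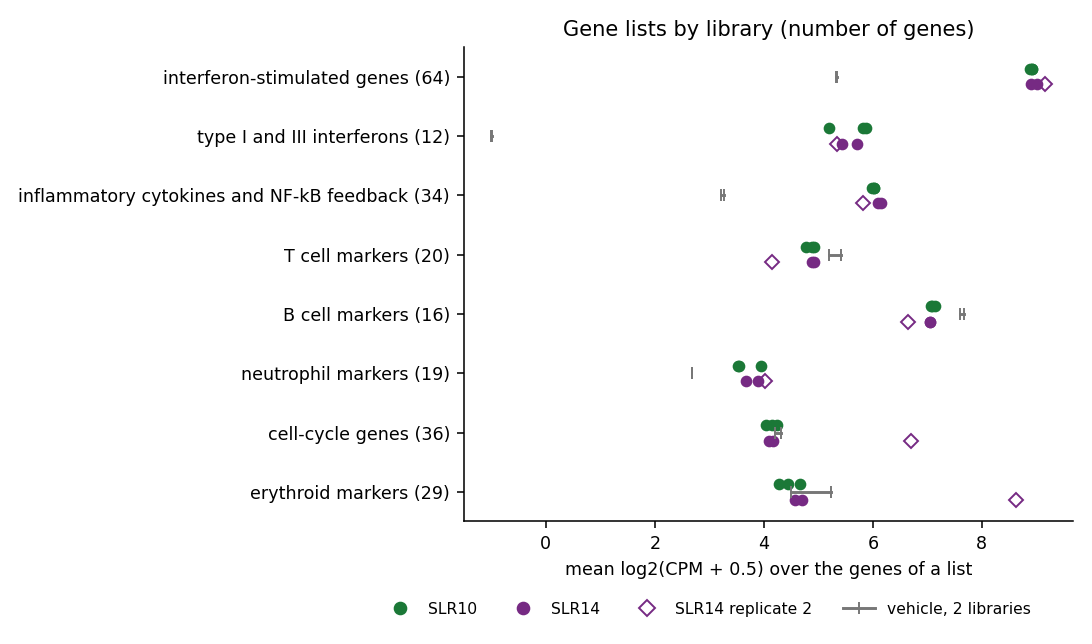
Mean log2(CPM + 0.5) over the genes of 8 lists in each SLR10 and SLR14 library (points), with SLR14 replicate 2 as an open diamond and the range of the 2 vehicle libraries as a grey bar. The erythroid and cell-cycle means of SLR14 replicate 2 (8.63 and 6.70) lie above the other 5, and its T cell mean (4.15) lies below them.

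Transcripts of the translation and respiration machinery differed little between the groups. All 32 ribosomal protein genes were within 2-fold with a median difference of 0.02. Mitochondrial transcripts had 11 of 12 within it, all but mt-Nd6, with a median of 0.09. Both lists had their highest summed level in SLR14 replicate 3. It was 20198 CPM for ribosomal protein genes, against 17292 to 18664 CPM in the other libraries. For mitochondrial transcripts it was 20234 CPM, against 16343 to 18264 CPM.

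Genes were also ranked by p, and since p chose them their values are a description. A small p favours genes of small spread, so this order does not mark the largest differences that the data leave room for. Those lie among the 1009 genes that did not meet the 2-fold bound, of which 294 did not meet a 4-fold bound either. On the lower side with SLR14 the order began with Zfp36l2, a protein that promotes decay of AU-rich mRNAs, on chromosome 17 at 84183931-84187947. It was at 172, 244 and 162 CPM with SLR10 and at 101, 103 and 91.9 CPM with SLR14, against 128 and 121 CPM with vehicle. The vehicle values lay between the groups of stem-loop RNA. Its difference was -0.94 (-1.33 to -0.55), with an adjusted p of 0.892 by limma and 0.0019 by DESeq2, and 0.0019 to 0.999 over the alternatives. Ddit4, a stress-induced inhibitor of mTORC1, followed at 39.3, 42.6 and 36.4 CPM with SLR10 and 29.7, 22.8 and 22.1 CPM with SLR14. Its difference of -0.67 (-0.99 to -0.34) met the 2-fold bound (adjusted p = 0.0245, limma). The others were Pla2g5, Il12b, Faim3, Chst3, Il4i1, Sorbs3, S1pr3 and Pla2g2d, of which all but Il12b met the bound.

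On the higher side the order began with Plau, the urokinase plasminogen activator, at 6.67, 6.47 and 7.02 CPM with SLR10 and 9.11, 8.75 and 11.1 CPM with SLR14. The difference was 0.48 (0.19 to 0.78). Slc30a1, a zinc exporter, followed with 0.42 (0.14 to 0.69), then Mrps25, Rsbn1l, Lmnb1, Tex2, Dcun1d1, Pde4d, Cdkn1b and Tmem33. All 10 were within 2-fold, and none passed in either direction.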

How the data were processed

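Poly(A) RNA of 17 spleens was sequenced from stranded libraries, per the labels' protocols. The submitters' processing notes name TopHat and TopHat2 2.0.6, HTSeq, SAMtools 1.4, edgeR and FastQC, and the builds mm10 and GRCm38. The strand setting and annotation version are not given in the sources used here. The deposited table holds a signal per gene that the authors made by scaling read counts with edgeR and call CPM. Its columns sum to 1058768 to 1201946 in the 6 stem-loop libraries and to 696315 and 696096 in the vehicle libraries. The scaling was thus not to library size alone. Every value was a whole multiple of 1 read (100.0% within 0.01 reads), so counts were recovered for edgeR 4.0.16 and DESeq2 1.42.0, run as alternatives. Of 39184 lines, 38340 genes were kept; 5 lines had no name, 699 read #N/D, 27 read as dates, and 113 repeated 1 of 87 names already present. Unnamed lines held 36.9% to 40.4% of reads in the 6 stem-loop libraries.

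Genes reaching 1 CPM in 2 or more of the 6 libraries were tested as log2(CPM + 0.5) with limma 3.58.1 (R 4.3.3), with a mean-variance trend, 95% intervals and Benjamini-Hochberg adjustment at 0.05 over all genes. A gene was called within 2-fold when both one-sided tests passed. The response against vehicle came from a model of all 17 libraries. Intervals cover the spread between libraries, and PCR copies are not independent reads. The steps were tested on simulated data. Gene positions are those of GENCODE vM21 and promoter sequences those of RefSeq.

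Named genes were a panel of sensors, interferons, interferon-stimulated and cytokine genes, the smallest p on each side (with a mean of at least 5 CPM), the largest shared responses, the largest deviations of SLR14 replicate 2, and members furthest apart within each list. Cmpk2, Ube2l6, Selp, Saa3, Chil3, mt-Nd6, Retnlg, Ngp, Mki67 and the genes of the closing observations were chosen after their values were seen. A member of the panel is not reported here. Members, lists and tests were chosen with earlier results of these data known. Alternatives changed the pseudocount, filter, scaling, weights, tool, model, control, replicate block and each left-out library.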

Additional observations from a re-analysis of the deposited data

How the results depend on the processing

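For SLR14 against SLR10, 0 genes were called under 16 of 17 alternatives, including each left-out library (0 to 0), and DESeq2 called 1, Zfp36l2 (lower). The count within 2-fold was 11408 to 12635 with a library left out, lowest without SLR14 replicate 1 and highest without SLR14 replicate 2, and 21464 of 22657 (94.7%) with no filter, since more genes were tested. edgeR gives no such test and was not run for it. The response against vehicle gave 4096 to 6111 genes with a library left out, lowest without vehicle replicate 2, and 10084 with library weights, where SLR14 replicate 2 had a weight of 0.214 and naive replicate 2 the highest, 73.5; the cause was not tested. Of 2872 values of named genes under an alternative, 20 moved by more than the SD between replicates and 96 changed sign, none of them called; of 405 list medians, 17 moved so and 49 changed sign.

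Deviations of equal-numbered SLR14 and SLR10 libraries correlated at -0.135, 0.0652 and 0.153 across genes, and different-numbered ones at -0.198 to 0.191. These values depend on each other and on the outlying SLR14 replicate 2. They cannot decide whether equal numbers mark pairs. A replicate block gave 0 calls, 12019 genes within 2-fold and 6212 response genes.

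With 3 libraries a group, of which SLR14 replicate 2 stands apart, a 1.5-fold bound was met by 73.8% of genes only. Depth limits the low genes: 1 read was worth up to 0.0431 CPM, and Ifnl2 stood at under 3 CPM throughout. Dose was matched by mass, and a single time and dose were sampled as far as the labels say.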

Other observations

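Only 9 of the 12913 genes had a fitted level more than 2-fold lower with SLR14, and 159 had one more than 2-fold higher. Without SLR14 replicate 2 there were 7 and 3. Of the 9, 4 were immunoglobulin genes: Ighg2b, the constant region of an IgG subclass, and the variable segments Ighv13-2, Ighv1-36 and Ighv1-19. Ighg2b was at 166, 68.6 and 131 CPM with SLR10 and at 51.5, 93.8 and 24.0 CPM with SLR14, so the groups overlapped and the interval of its difference was -2.51 to 0.07 on the log2 scale. Ighv1-36 was at 13.6 CPM in SLR10 replicate 1 and at 1.15 to 2.34 CPM in the other 5, so 1 library set its difference. Xlr3b, a member of an X-linked lymphocyte-regulated family with near-identical copies, was at 3.37, 2.83 and 3.10 CPM with SLR10 and at 0.765, 1.87 and 0.259 CPM with SLR14, without overlap, and differed by -1.45 (-2.40 to -0.50). None of these passed with limma (adjusted p of at least 0.892).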
